A study of Mus musculus with 21 samples.

Results

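The Nrf2 antioxidant genes described here were 10 genes taken by symbol from the deposited count table: the regulators Nfe2l2 and Keap1, the cystine and glutathione genes Slc7a11, Gclc and Gclm, the thiol-reducing genes Txnrd1, Srxn1 and Prdx1, and the detoxifying enzymes Nqo1 and Gstm1. They are 10 of the 34236 gene symbols in the table, and each occupied 1 line of it. Levels are given as CPM, each gene's counts relative to library size after TMM scaling, which evens out differences in RNA composition between libraries. All 10 passed the filter on low counts in each of the 12 comparisons.

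The RNA came from F4/80+CD64+ macrophages flow sorted from kidneys of male C57BL/6J mice aged 24 weeks, with a sort time of 5 h in the labels. Renal artery stenosis (RAS) was made with a cuff on the right renal artery, and in Sham mice the artery was isolated without a cuff. CD11chi Mϕ and CD11clo Mϕ are high in CD11b and are described by the study as monocyte-derived, whereas KRM, intermediate for both integrins, are described as kidney-resident. The 21 libraries comprised CD11chi Mϕ from Sham (n = 3) and RAS kidneys (n = 4), CD11clo Mϕ from Sham (n = 3) and RAS kidneys (n = 4), and KRM from Sham (n = 4) and RAS kidneys (n = 3). The labels do not say whether libraries of a group came from separate mice, so p-values measure the spread between these libraries.

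Nrf2, the product of Nfe2l2, is a transcription factor that KEAP1 holds in the cytoplasm and marks for degradation. Oxidants and electrophiles modify KEAP1, Nrf2 then accumulates, and it binds with small MAF proteins to antioxidant response elements near genes for glutathione synthesis, thiol reduction and detoxification. In macrophages this program limits oxidant damage and inflammatory gene expression, and in the kidney the same genes are also expressed by tubular epithelium.

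The sequences below show the antioxidant response element core in the members' own promoters, since this element is what the named program is built on. The core was searched as TGACNNNGC on both strands of RefSeq windows (GRCm38.p6) that run from 250 bases before to 50 bases after each gene's start. It was found in 5 of the 9 members with a window, and in 14.0% of the 27025 genes with a window. Each line gives the strand that reads the core, with 10 bases on either side in lower case and the core in capitals.
Nfe2l2: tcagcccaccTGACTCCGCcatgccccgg
Gclm: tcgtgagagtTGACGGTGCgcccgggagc
Srxn1: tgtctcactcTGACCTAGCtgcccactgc
Txnrd1: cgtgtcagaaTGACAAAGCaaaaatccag
Prdx1: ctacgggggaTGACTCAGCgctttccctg
These stretches lie on the minus strand at chr2:75704885-75704913 (Nfe2l2), chr3:122245413-122245441 (Gclm), chr2:152105542-152105570 (Srxn1), chr10:82859104-82859132 (Txnrd1) and chr4:116685456-116685484 (Prdx1). The Nfe2l2, Gclm and Prdx1 cores lie before the gene's start and the Srxn1 core after it. Txnrd1 has 3 windows, for 3 starts, and its core lies in 1 of them, before a start that is inside the gene as annotated. The Prdx1 core also holds the AP-1 letters TGACTCA. Keap1, Slc7a11, Nqo1 and Gstm1 held no such letters in their windows, and Gclc had no window. A match is a description of letters and not a bound site.

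The libraries held 6891137 to 18592376 counts, and the macrophage genes Adgre1 (F4/80), Fcgr1 (CD64) and Itgam (CD11b) were detected in all of them, with Itgax (CD11c) at 8.65 to 57.8 CPM in CD11clo Mϕ and 119 CPM or more in the other populations. The macrophage genes were uneven in CD11chi Mϕ. Sham library 3 had Itgam at 129 CPM and Adgre1 at 326 CPM, against 638 and 790 CPM and 665 and 934 CPM in Sham libraries 1 and 2. RAS libraries 3 and 4 had Fcgr1 at 19.7 and 12.1 CPM. Libraries of 3 kinds stood apart. The RAS library numbered 1 of each population was closer to the Sham mean of its population than to the mean of the other RAS libraries (root mean square log2 difference over genes 0.788 against 1.043 in CD11chi Mϕ, 0.934 against 1.188 in CD11clo Mϕ and 0.928 against 1.602 in KRM), whereas each other RAS library was closer to the other RAS libraries. The Sham libraries numbered 3 had summed levels of 10 proximal tubule genes of 14800 CPM (CD11chi Mϕ), 4980 CPM (CD11clo Mϕ) and 2080 CPM (KRM), where the other Sham libraries had 132 to 378 CPM. They were also the highest Sham libraries for 10 genes of other tubule segments, at 1850, 687 and 235 CPM in the same order. The Sham group medians were 18.1, 19.6 and 14.9 CPM. KRM RAS libraries 2 and 3 had 5810 and 4330 CPM of 10 genes of other tubule segments, where KRM RAS library 1 had 145 CPM and the KRM Sham libraries 14.0 to 235 CPM.

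In Sham kidneys Prdx1, a peroxidase that removes hydrogen peroxide, had the highest mean level of the 10 genes in all 3 populations, followed by Nfe2l2. On the deposited log2 scale per transcript length, read from its values as log2(TPM + 1), KRM had Prdx1 at 9.35 ± 0.22 and Nfe2l2 at 8.01 ± 0.10 (SD, n = 4). The lowest levels per length in KRM were Nqo1 at 1.46 ± 0.57 and Slc7a11 at 0.60 ± 0.17 (SD, n = 4). In CD11clo Mϕ the lowest member was Nqo1 at 2.90 ± 1.39 (SD, n = 3). In CD11chi Mϕ the mean of Slc7a11, the cystine transporter gene, was the lowest, but only through library 3, as Nqo1 was at 1.95, 1.12 and 4.53 and Slc7a11 at 2.48, 1.43 and 1.54 in libraries 1, 2 and 3. Slc7a11 was the member whose mean level per length differed most between populations, at 1.81 ± 0.58 in CD11chi Mϕ and 4.13 ± 0.21 in CD11clo Mϕ (SD, n = 3 each).

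**Figure D1:**
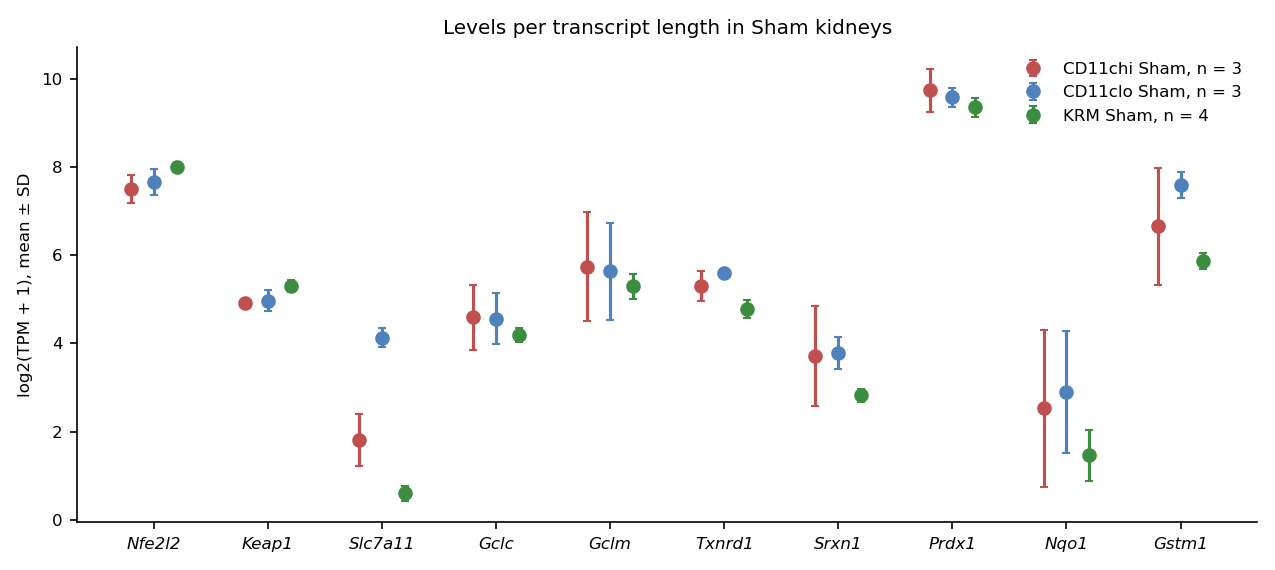
Mean log2(TPM + 1) per transcript length (vertical axis) of the 10 genes (horizontal axis) in Sham kidneys, with SD bars, for CD11chi (n = 3), CD11clo (n = 3) and KRM (n = 4). Prdx1 and Nfe2l2 lie highest, and the 3 populations are furthest apart at Slc7a11, from 0.60 in KRM to 4.13 in CD11clo.

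Neither Nfe2l2 nor Keap1 was called between the 3 Sham populations. Nfe2l2 (chr2:75675513-75704641, minus strand) was at 301, 298, 281 and 283 CPM in KRM, at 246, 257 and 183 CPM in CD11chi Mϕ and at 272, 238 and 323 CPM in CD11clo Mϕ. Keap1 (chr9:21229730-21239361, minus strand), which encodes the Nrf2 inhibitor, was at 55.3 to 65.9 CPM in KRM, 49.9 to 52.5 CPM in CD11chi Mϕ and 43.6 to 58.7 CPM in CD11clo Mϕ. KRM libraries lay above all CD11chi Mϕ libraries for both genes but overlapped CD11clo Mϕ. The KRM minus CD11chi Mϕ difference was 0.33 (SE 0.165) for Nfe2l2 and 0.24 (SE 0.135) for Keap1 on the log2 scale, with edgeR adjusted p = 0.256 and 0.3.

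Slc7a11, which imports cystine for glutathione synthesis, separated the 3 Sham populations without overlap. The gene (chr3:49892526-50443614, minus strand) was at 0.591, 0.411, 0.452 and 0.607 CPM in KRM, from 4 to 9 counts per library. These counts lie under the filter's minimum of 10. The comparisons with KRM thus tested the gene only through the other population, and their ratios rest on those few counts. Slc7a11 was at 5.54, 3.37 and 3.21 CPM in CD11chi Mϕ and at 22.5, 17.9 and 25.9 CPM in CD11clo Mϕ. KRM were lower than CD11clo Mϕ by a log2 difference of -5.38 (SE 0.27, edgeR adjusted p = 4.73e-06), a ratio of 0.024, and all alternative analyses of this comparison, each left-out library included, kept this call. In the deposited log2(TPM + 1) table, where fold changes of low genes are understated, the difference was -3.53 (SE 0.195). KRM were also lower than CD11chi Mϕ (-2.97, SE 0.378, edgeR adjusted p = 0.00837), and CD11chi Mϕ lower than CD11clo Mϕ (-2.37, SE 0.332, edgeR adjusted p = 0.0352). Blocking on replicate number, which was taken to pair the Sham libraries of different populations, ended 1 of these calls, as the KRM minus CD11chi Mϕ difference for Slc7a11 was then -3.01 with edgeR adjusted p = 0.0992. That call also ended without CD11chi Mϕ Sham library 1 (edgeR adjusted p = 0.0528) and in the deposited log2 table, where the difference was -1.21 (SE 0.284, limma adjusted p = 0.0749), and the CD11chi Mϕ minus CD11clo Mϕ call ended when any of 5 of its 6 libraries was left out (edgeR adjusted p from 0.0885 to 0.236).

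Against CD11clo Mϕ, 4 further members were lower in Sham KRM. Gstm1 (chr3:108012255-108017973, minus strand), which conjugates glutathione to electrophiles, was at 42.6, 41.5, 46.5 and 35.0 CPM in KRM and at 135, 165 and 192 CPM in CD11clo Mϕ. Its log2 difference was -1.956 (SE 0.142, edgeR adjusted p = 2.53e-05). Txnrd1 (chr10:82833951-82897712, plus strand), which reduces thioredoxin, was at 46.6 to 62.0 CPM in KRM and 101 to 116 CPM in CD11clo Mϕ (-0.96, SE 0.139, edgeR adjusted p = 9.37e-04). The groups did not overlap for either gene. Srxn1 (chr2:152105516-152111376, plus strand), which repairs overoxidised peroxiredoxins, was at 9.25 to 13.4 CPM in KRM and at 14.1, 22.6 and 28.6 CPM in CD11clo Mϕ (-0.995, SE 0.267, edgeR adjusted p = 0.0179). Prdx1 (chr4:116685544-116700822, plus strand) was at 383 to 505 CPM in KRM and 616 to 777 CPM in CD11clo Mϕ (-0.57, SE 0.16, edgeR adjusted p = 0.0212).

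In this comparison 5 of 10 members were called, all lower in KRM, where 41.8% of all genes tested were called, 19.5% higher and 22.3% lower. The median log2 difference of the members was -0.83 and that of all genes -0.04. Monocyte genes were also lower in KRM, 8 of 8 tested, at 574 to 854 CPM summed against 7170 to 17300 CPM in CD11clo Mϕ. So were neutrophil genes, 5 of 5 tested, at 90.9 to 115 CPM against 920 to 1930 CPM. Of 13 macrophage identity genes 11 were higher in KRM and 2 lower. The part of these cell type differences in the members' values was not tested. In 1 fit over all 6 groups the calls of Txnrd1 (-0.94, edgeR adjusted p = 0.122), Srxn1 (-0.98, edgeR adjusted p = 0.325) and Prdx1 (-0.55, edgeR adjusted p = 0.2) ended. The Prdx1 call was also lost with the replicate block (-0.53, edgeR adjusted p = 0.0501) and in the log2 table (-0.23, limma adjusted p = 0.305), and leaving out CD11clo Mϕ Sham library 1 ended the calls of Srxn1 (edgeR adjusted p = 0.0751) and Prdx1 (edgeR adjusted p = 0.085). KRM Sham library 2 likewise decided both calls (edgeR adjusted p = 0.0536 and 0.0662), and KRM Sham library 4 that of Prdx1 (edgeR adjusted p = 0.0612). Against CD11chi Mϕ, 1 of 10 members was called, lower in KRM, where 5.12% of all genes were called, 1.0% higher and 4.12% lower. Between CD11chi Mϕ and CD11clo Mϕ, 1 of 10 was called, lower in CD11chi Mϕ, where 1.52% of all genes were called, 0.917% higher and 0.603% lower. With the block these shares rested on 89 genes in place of 635, and on 595 in place of 184.

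The other members were not called between Sham populations, and library 3 was the high one for most of them. Nqo1 (chr8:107388225-107403206, minus strand), a quinone reductase, was at 2.62, 1.26 and 21.3 CPM in CD11chi Mϕ, at 1.33, 4.93 and 19.6 CPM in CD11clo Mϕ and at 1.42, 0.514, 3.82 and 1.62 CPM in KRM. Gclm (chr3:122245557-122270732, plus strand), the modifier subunit of the enzyme that makes gamma-glutamylcysteine, was at 27.5, 31.0 and 132 CPM, at 27.4, 29.7 and 111 CPM and at 26.5, 30.5, 46.2 and 28.4 CPM in the same order. The library numbered 3 was the highest in each population for both genes. Gclc (chr9:77754535-77794485, plus strand), the catalytic subunit, was at 39.9, 33.6 and 85.2 CPM in CD11chi Mϕ and 43.5, 32.5 and 81.2 CPM in CD11clo Mϕ, with library 3 again the highest, and at 32.1 to 40.8 CPM in KRM. CD11chi Mϕ library 3 was also the highest of its group for Gstm1 (43.4, 46.1 and 252 CPM), Srxn1 (12.3, 12.9 and 52.9 CPM), Txnrd1 (66.9, 73.5 and 103 CPM) and Prdx1 (544.5, 504.4 and 1222 CPM).

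These are the libraries with high proximal tubule genes. All 10 of those genes were detected in each Sham library numbered 3, and Slc34a1, the proximal phosphate transporter, was at 5300, 1410 and 850 CPM in them against 34.5 to 115 CPM in the other Sham libraries. None of the 10 was called in any comparison between Sham populations. Their part in the members' levels was not tested. Without the Sham libraries numbered 3, a choice made after seeing the data, Gstm1 was lower in CD11chi Mϕ than in CD11clo Mϕ (-1.74, edgeR adjusted p = 0.00131), where all libraries together had given -0.36 (SE 0.757, edgeR adjusted p = 0.817). The KRM minus CD11clo Mϕ calls of the 5 members numbered 5 without these libraries too.

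**Figure D2:**
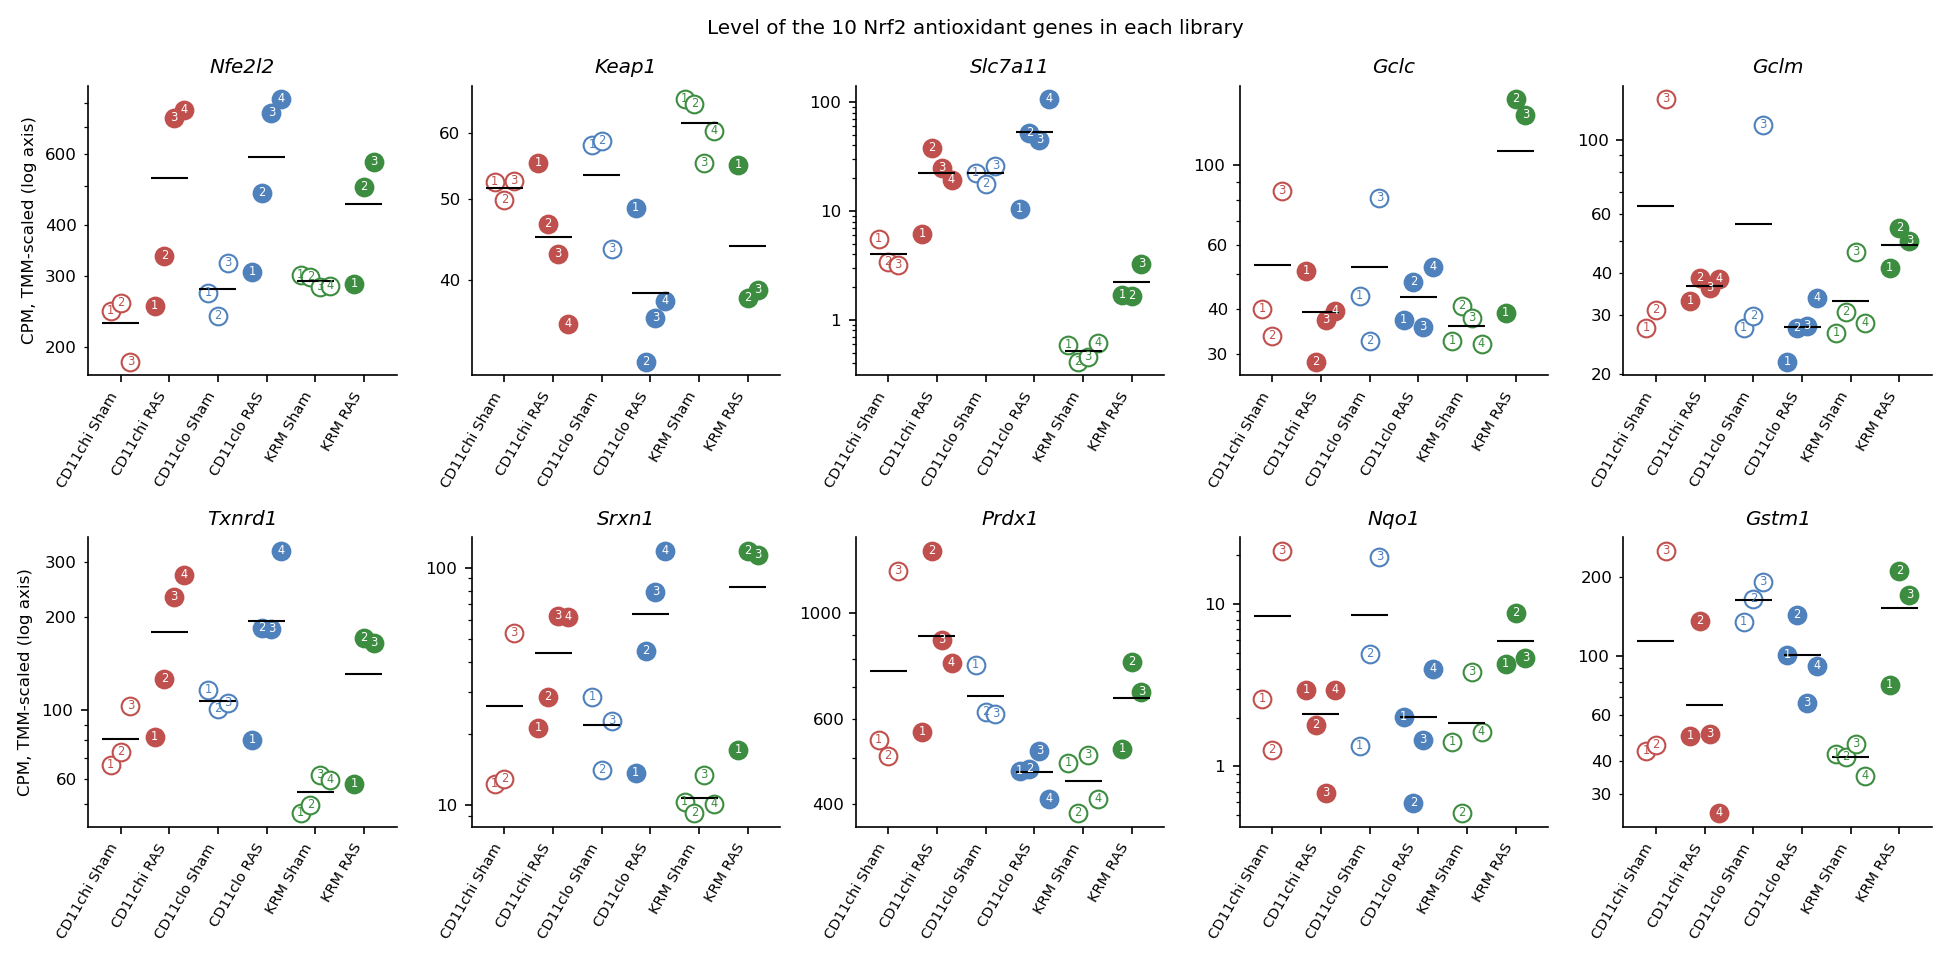
CPM after TMM scaling (vertical axes, log scale) of each of the 10 genes in the 21 libraries, grouped on the horizontal axes by population and surgery, with open circles for Sham, filled circles for RAS, the replicate number inside and a line at the group mean. RAS libraries numbered 1 sit near the Sham libraries for Nfe2l2, Srxn1 and Txnrd1. Sham libraries numbered 3 are the highest Sham libraries of their population for Nqo1 and Gclm.

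In KRM, 4 of the 10 members rose in RAS kidneys and none fell. Gstm1, Gclc, Srxn1 and Slc7a11 were called where 9.7% of all genes were called, 7.77% higher and 1.94% lower. Of these 4, Slc7a11 passed the filter on low counts only through its RAS libraries. The median log2 difference of the members was 1.46, against 0.02 over all genes tested. The summed level of the 10 genes was 918 to 1050 CPM in the 4 Sham libraries, and it was 1100, 2040 and 1940 CPM in RAS libraries 1, 2 and 3. RAS library 1 was thus just above the Sham libraries and the other RAS libraries well above it.

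Srxn1 had the largest difference of the called members. It was at 17.1, 117 and 113 CPM in RAS libraries 1, 2 and 3, against 9.25 to 13.4 CPM in the Sham libraries. All RAS libraries lay above all Sham libraries, with library 1 close to them. The log2 difference was 2.95 (SE 0.57, edgeR adjusted p = 0.0286), a 7.73-fold difference. Without RAS library 1 it was 3.37 (SE 0.155, edgeR adjusted p = 8.04e-06).

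Gclc and Gstm1 showed a like split between RAS libraries. Gclc was at 39.1, 153 and 138 CPM in RAS and at 32.5, 40.8, 37.8 and 32.1 CPM in Sham, so that RAS library 1 lay within the Sham range. Its log2 difference was 1.63 (SE 0.402, edgeR adjusted p = 0.0452). Gstm1 was at 77.6, 210 and 172 CPM in RAS, all above the Sham range of 35.0 to 46.5 CPM (1.91, SE 0.303, edgeR adjusted p = 0.0209). Gstm1 shares 18.9% of its 50-base stretches with transcripts of 5 other genes, so its counts may hold reads of its relatives. Its close relative Gstm2 was at 1.38, 103 and 79.1 CPM in the RAS libraries and at 0.304 to 0.753 CPM in the Sham libraries.

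Slc7a11 rose from a level near the limit of detection. It was at 1.68, 1.66 and 3.28 CPM in RAS (17, 18 and 34 counts) against 0.411 to 0.607 CPM in Sham, with no overlap (2.11, SE 0.446, edgeR adjusted p = 0.0331). Its Sham libraries held 4 to 9 counts, under the filter's minimum count of 10. The gene was thus tested only through the group where it was higher, so the call and the lack of overlap depend on that selection. RAS library 1 was as high as library 2 here. In the deposited log2(TPM + 1) table without the KRM RAS column 1, the same comparison gave 0.004 (limma adjusted p = 0.985).

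The other 6 members did not pass the test. Nfe2l2 itself was at 286, 496 and 573 CPM in RAS and 281 to 301 CPM in Sham (0.66, SE 0.221, edgeR adjusted p = 0.0874). Keap1 was at 55.0, 38.1 and 39.0 CPM in RAS, all below the Sham range of 55.3 to 65.9 CPM (-0.46, SE 0.167, edgeR adjusted p = 0.103). Txnrd1 was at 57.8, 171 and 165 CPM in RAS and 46.6 to 62.0 CPM in Sham (1.29, SE 0.341, edgeR adjusted p = 0.0528). For these 3 genes RAS library 1 was the library nearest to Sham. Prdx1 was at 522, 789 and 683 CPM in RAS against 383 to 505 CPM (0.60, SE 0.178, edgeR adjusted p = 0.0675). Gclm was at 41.5, 54.4 and 49.9 CPM in RAS against 26.5 to 46.2 CPM (0.58, SE 0.214, edgeR adjusted p = 0.105), and Nqo1 at 4.25, 8.84 and 4.63 CPM against 0.514 to 3.82 CPM (1.66, SE 0.614, edgeR adjusted p = 0.107). Prdx1 and Nqo1 did not overlap between the groups, and Gclm did through Sham library 3.

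Without RAS library 1, 8 members were called and 7070 genes in place of 1247. Nfe2l2 (0.85, SE 0.11, edgeR adjusted p = 7.15e-04), Txnrd1 (1.59, SE 0.14, edgeR adjusted p = 1.35e-04) and Prdx1 (0.69, edgeR adjusted p = 0.00606) were then higher in RAS. Keap1 was then lower (-0.71, SE 0.117, edgeR adjusted p = 0.00204). Without Sham library 3, Gclm (0.78, edgeR adjusted p = 0.0338) and Nqo1 (2.32, edgeR adjusted p = 0.0413) were called and the Gclc call ended (edgeR adjusted p = 0.0666). Leaving out any of KRM Sham libraries 1, 2 and 4 or RAS libraries 2 and 3 ended the calls of Gstm1, Gclc, Srxn1 and Slc7a11 (edgeR adjusted p from 0.0683 to 0.173), while their differences stayed between 1.31 and 2.93. The genes called were then as few as 28, without KRM Sham library 1 or RAS library 2.

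Tubule genes moved with these results. Of 10 genes of other tubule segments 8 were tested and 5 rose in KRM from RAS kidneys, where 7.77% of all genes rose. These 5 were Slc12a3, Calb1, Epcam, Krt8 and Krt18, with log2 differences from 6.48 to 8.65. The summed level of the 10 genes was 145, 5810 and 4330 CPM in RAS libraries 1, 2 and 3, against 14.0 to 235 CPM in Sham. Aqp2, the collecting duct water channel, was at 0.297, 627 and 439 CPM in the RAS libraries and had 0 counts in 3 of the 4 Sham libraries. Of the proximal tubule genes 0 of 10 were called, at 1250, 806 and 713 CPM summed in RAS libraries 1, 2 and 3 and at 378, 304, 2080 and 368 CPM in Sham libraries 1 to 4. RAS library 1 was thus the lowest RAS library for the other tubule genes and the highest for the proximal ones. In it Gstm1, Srxn1 and Slc7a11 were above all Sham libraries, whereas Gclc was within the Sham range. The part of tubule RNA in the members' differences was not tested. Fewer cells of a type and less RNA per cell cannot be told apart in sorted bulk samples.

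Markers of further cell types were also called higher in KRM from RAS kidneys, where 7.77% of all genes were called higher and 1.94% lower. Of the T and NK cell genes 7 of 8 tested rose and 1 fell, but their summed level was 351, 59.0 and 60.8 CPM in RAS libraries 1, 2 and 3 against 76.4 to 106 CPM in Sham, so that RAS libraries 2 and 3 lay below the Sham range. Stromal genes (3 of 5 tested, 42.3 to 627 CPM against 19.5 to 40.4 CPM), endothelial genes (3 of 6 tested, 17.1 to 219 CPM against 10.1 to 22.0 CPM) and podocyte genes (1 of 1 tested, 2.77 to 83.8 CPM against 2.02 to 4.14 CPM) rose as well. Of 12 genes of the dissociation response 1 rose and 3 fell, at 22600 to 25900 CPM against 31300 to 46500 CPM in Sham. Of macrophage identity genes 1 rose and 2 fell of 13, of dendritic cell genes 3 rose and 1 fell of 8, of monocyte genes 2 rose and 1 fell of 8, and none of 4 neutrophil or 5 B and plasma cell genes tested was called. Their part in the members' values was not tested.

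**Figure D3:**
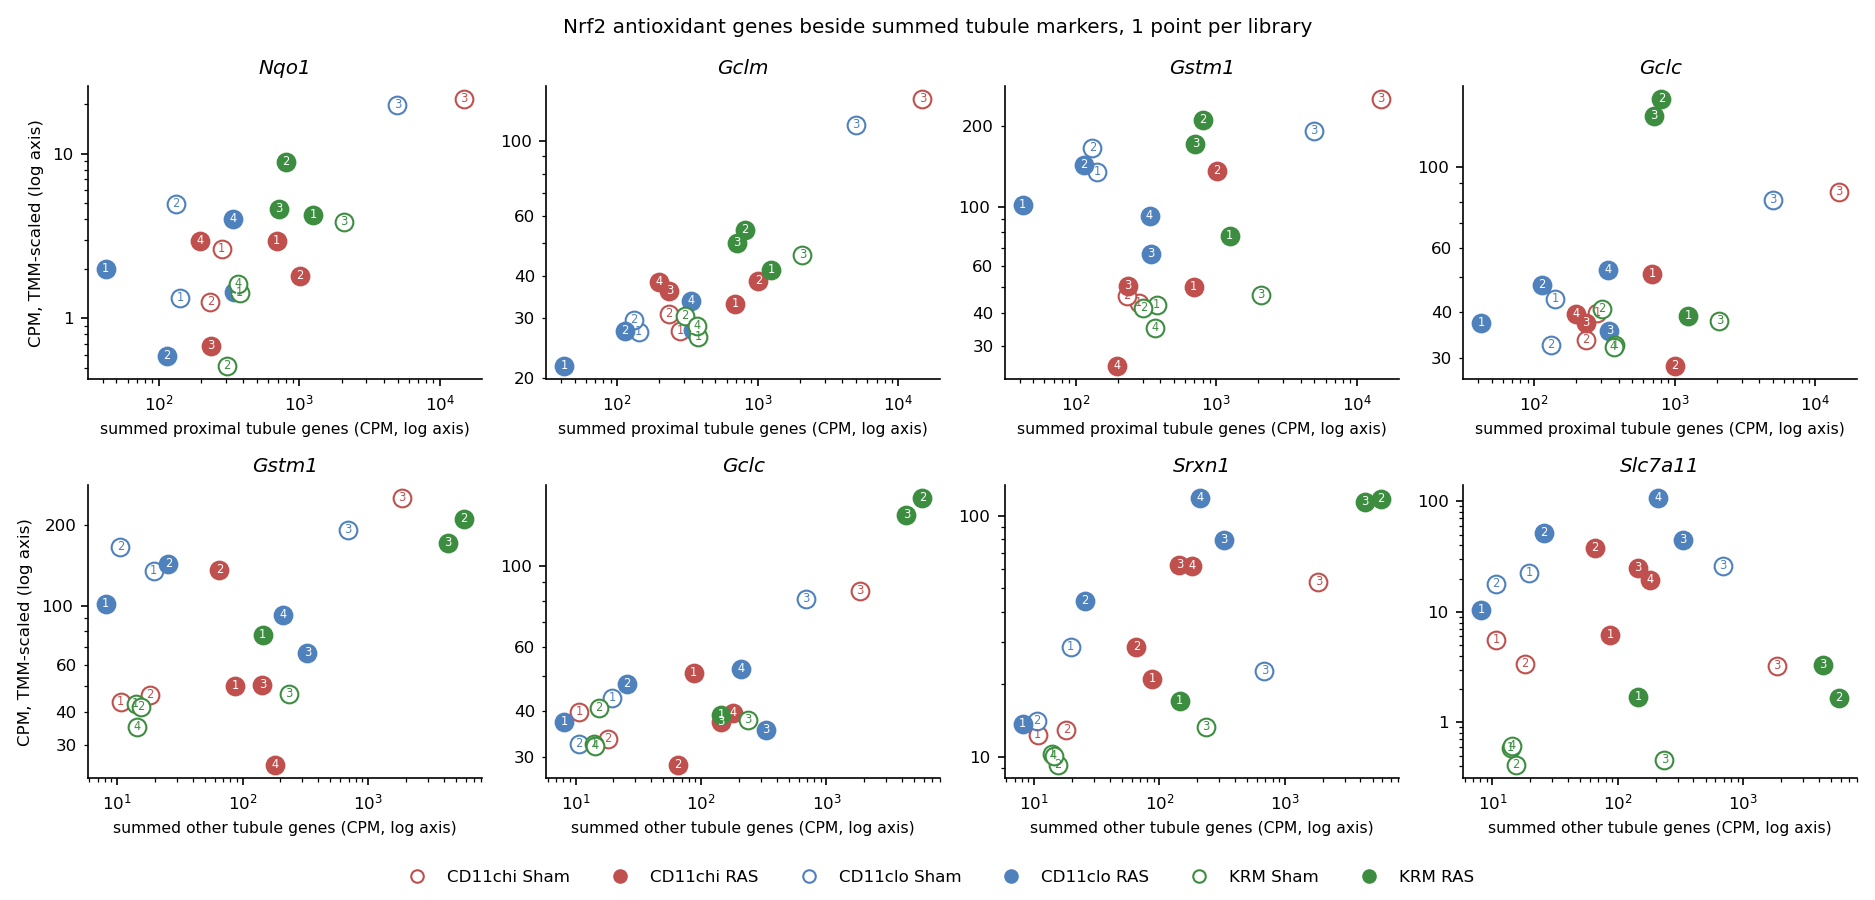
CPM of 6 of the genes (vertical axes, log scale) against the summed CPM of 10 proximal tubule genes (upper row) or 10 genes of other tubule segments (lower row; horizontal axes, log scale), with 1 point per library, open for Sham and filled for RAS, and the replicate number inside. Sham libraries numbered 3 lie at the right of the upper row with high Nqo1 and Gclm, and KRM RAS libraries 2 and 3 lie at the right of the lower row with Gclc at 153 and 138 CPM.

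No member was called between RAS and Sham in CD11chi Mϕ, where 0.0% of all genes were called by edgeR, with 1247 genes at an unadjusted p under 0.05 and 188 called by DESeq2. Slc7a11 was nonetheless apart: it was at 6.17, 37.98, 24.9 and 19.3 CPM in RAS libraries 1 to 4 and at 3.21 to 5.54 CPM in Sham. All RAS libraries were above all Sham libraries, with library 1 nearest (2.42, SE 0.623, edgeR adjusted p = 0.508), and DESeq2 called it (2.44, adjusted p = 0.0155). Nfe2l2 was at 252, 336, 737 and 772 CPM in RAS against 183 to 257 CPM in Sham (1.16, SE 0.448, edgeR adjusted p = 0.508). Txnrd1 was at 82.3, 126, 232 and 272 CPM in RAS against 66.9 to 103 CPM (1.08, SE 0.441, edgeR adjusted p = 0.508). In both genes RAS libraries 2, 3 and 4 were above every Sham library and library 1 was within the Sham range. In RAS libraries 3 and 4, the highest for both genes, Adgre1 was at 123 and 116 CPM against 326 to 934 CPM in Sham. Fcgr1 was at 19.7 and 12.1 CPM against 42.0 to 111 CPM, and Itgax at 891 and 898 CPM against 119 to 378 CPM. Dendritic cell genes summed to 1160 to 5370 CPM in RAS against 437 to 1930 CPM. Of 13 macrophage identity and 8 dendritic cell genes tested 0 were called, and their part in the members' values was not tested. Other members had lower means in RAS, with Nqo1 at -2.07 (SE 0.989, edgeR adjusted p = 0.515), Gclm at -0.86 (SE 0.547, edgeR adjusted p = 0.594), Gstm1 at -0.85 (SE 0.782, edgeR adjusted p = 0.7) and Gclc at -0.49 (SE 0.379, edgeR adjusted p = 0.646), and Sham library 3 was the highest Sham library for each of these. Without it all 4 differences turned, to 0.11 for Nqo1, 0.31 for Gclm, 0.56 for Gstm1 and 0.08 for Gclc (edgeR adjusted p from 0.634 to 0.962). The median log2 difference was -0.02 over the members and -0.088 over all genes tested, and without Sham library 3 it was 0.667 over the members.

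For CD11clo Mϕ the members were likewise not called, and 0.0% of all genes were called by edgeR, with 1102 genes at an unadjusted p under 0.05 and 107 called by DESeq2. Nfe2l2 was at 307, 479, 758 and 819 CPM in RAS against 238 to 323 CPM in Sham (1.10, SE 0.35, edgeR adjusted p = 0.553). Srxn1 was at 13.7, 44.4, 78.9 and 118 CPM against 14.1 to 28.6 CPM (1.55, SE 0.646, edgeR adjusted p = 0.553), and Slc7a11 at 10.4, 51.9, 44.8 and 106 CPM against 17.9 to 25.9 CPM (1.27, SE 0.636, edgeR adjusted p = 0.576). Library 1 was below or within the Sham range for each of them and the other RAS libraries above it. Prdx1 was at 469, 474, 516 and 411 CPM in RAS, all below the Sham range of 616 to 777 CPM (-0.52, SE 0.162, edgeR adjusted p = 0.553). Keap1 was at 48.8, 32.0, 36.1 and 37.8 CPM in RAS against 43.6 to 58.7 CPM (-0.46, SE 0.185, edgeR adjusted p = 0.553). Nqo1 (-2.10, SE 0.925, edgeR adjusted p = 0.554) and Gclm (-1.03, SE 0.491, edgeR adjusted p = 0.566) also had lower means in RAS. Sham library 3 was the highest for both, and without it Nqo1 was at -0.62 (SE 0.872, edgeR adjusted p = 0.815) and Gclm at -0.03 (SE 0.215, edgeR adjusted p = 0.968). The median log2 difference was -0.37 over the members and -0.025 over all genes tested, and without Sham library 3 it was 0.085 over the members.

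Leaving out the RAS libraries numbered 1 moved the differences of Nfe2l2 and Txnrd1 in both populations, and of Srxn1 in CD11clo Mϕ, further from 0. Without them the Nfe2l2 difference was 1.38 (SE 0.373) in CD11chi Mϕ and 1.31 (SE 0.257) in CD11clo Mϕ, with edgeR adjusted p = 0.172 and 0.129. Txnrd1 was at 1.32 (SE 0.359, edgeR adjusted p = 0.172) and 1.11 (SE 0.253, edgeR adjusted p = 0.17). Srxn1 in CD11clo Mϕ was at 1.89 (SE 0.408, edgeR adjusted p = 0.151). The number of members called stayed at 0 in both populations.

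**Figure D4:**
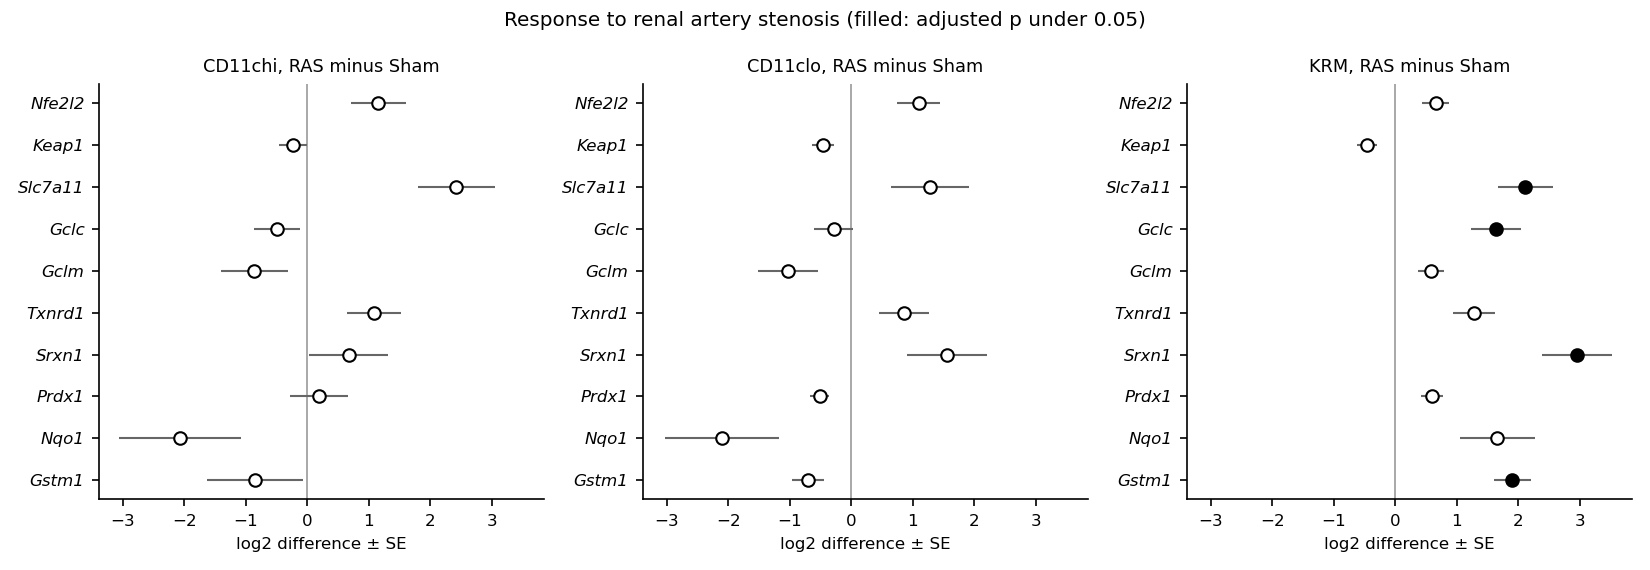
Log2 difference RAS minus Sham (horizontal axes) of the 10 genes in CD11chi, CD11clo and KRM, with SE bars and filled circles where the edgeR adjusted p was under 0.05. The filled circles are Slc7a11, Gclc, Srxn1 and Gstm1, all in KRM, with Srxn1 at 2.95.

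The difference in RAS response between populations was tested directly. The Gstm1 response was larger in KRM than in CD11clo Mϕ (2.53, SE 0.407, edgeR adjusted p = 0.0373), the only member called of 10, where 0.245% of all genes were called, 0.223% higher and 0.0216% lower. Gstm1 in CD11clo Mϕ was at 101, 143, 66.5 and 92.0 CPM in RAS against 135 to 192 CPM in Sham. The call was lost with the replicate block (2.38, edgeR adjusted p = 0.0729), in 1 fit over all 6 groups (2.48, edgeR adjusted p = 0.151) and without the Sham libraries numbered 3 (2.40, edgeR adjusted p = 0.111). It was also lost when any of 10 of the 14 libraries was left out, with edgeR adjusted p from 0.0572 to 0.125. Prdx1, which lay above Sham in KRM and below it in CD11clo Mϕ, had a difference of 1.06 (SE 0.248, edgeR adjusted p = 0.0726). Gclc had 1.82 (SE 0.524, edgeR adjusted p = 0.0915). DESeq2 called 4 members, with adjusted p = 8.44e-06 for Gstm1, 4.57e-04 for Prdx1, 0.0206 for Gclc and 0.0299 for Nqo1.

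Between KRM and CD11chi Mϕ no member's response was called by edgeR, where 0.0% of all genes were called, 2999 genes had an unadjusted p under 0.05 and DESeq2 called 1221. The members with the largest estimates were Nqo1 (3.64, SE 1.25, edgeR adjusted p = 0.131), Gstm1 (2.67, SE 0.903, edgeR adjusted p = 0.128), Srxn1 (2.18, SE 0.898, edgeR adjusted p = 0.186) and Gclc (2.04, SE 0.575, edgeR adjusted p = 0.101). DESeq2 called Nqo1, Gstm1 and Gclc. Without CD11chi Mϕ Sham library 3, the library with 14800 CPM of proximal tubule genes, the estimates were 1.51 for Nqo1, 1.29 for Gstm1, 1.11 for Srxn1 and 1.49 for Gclc (edgeR adjusted p from 0.429 to 0.713). Between CD11chi Mϕ and CD11clo Mϕ no member was called, with 0.0% of all genes called by edgeR, 900 genes at an unadjusted p under 0.05 and 15 called by DESeq2. For Nfe2l2 and Txnrd1 the differences in response between any 2 populations were -0.56 to 0.37, with SE from 0.43 to 0.631. These comparisons share libraries with those within each population.

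In RAS kidneys Slc7a11 was again lowest in KRM. They were at 1.66 to 3.28 CPM, below all CD11chi Mϕ libraries (-3.38, SE 0.678, edgeR adjusted p = 0.0318) and all CD11clo Mϕ libraries (-4.63, SE 0.835, edgeR adjusted p = 0.0283). It was the 1 of 10 members called against CD11chi Mϕ, where 9.23% of all genes were called, 4.17% higher and 5.07% lower. It was also the 1 of 10 called against CD11clo Mϕ, where 9.17% were called, 3.28% higher and 5.89% lower. Leaving out RAS library 2, 3 or 4 of CD11chi Mϕ, 2 or 4 of CD11clo Mϕ, or 2 or 3 of KRM ended the call concerned, with edgeR adjusted p from 0.0588 to 0.15. The differences under these omissions were -2.93 to -4.99.

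Gclc was high in 2 of the 3 RAS KRM libraries. It overlapped both populations through RAS library 1 (1.46, SE 0.424, edgeR adjusted p = 0.0661 against CD11chi Mϕ, and 1.33, SE 0.431, edgeR adjusted p = 0.0849 against CD11clo Mϕ). Without the RAS libraries numbered 1 Gclc was higher in KRM, by 2.00 (edgeR adjusted p = 0.00183) and 1.58 (edgeR adjusted p = 0.00368). Of the other tubule genes 5 and 3 of 10 were called higher in KRM in the same 2 comparisons, and 2 of 10 proximal tubule genes in each. Their part in the Gclc values was not tested. Between CD11chi Mϕ and CD11clo Mϕ no member was called, where 8.27% of all genes were (5.15% higher and 3.12% lower), 3170 had an unadjusted p under 0.05 and DESeq2 called 2054. Prdx1 was at 564, 1345, 875 and 785 CPM in CD11chi Mϕ, above all CD11clo Mϕ libraries (0.98, SE 0.301, edgeR adjusted p = 0.0739). It was called without CD11chi Mϕ RAS library 1 (1.17, edgeR adjusted p = 0.0176). Prdx1 shares 8.29% of its 50-base stretches with 39 other genes, so pseudogene reads may be counted with it.

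**Figure D5:**
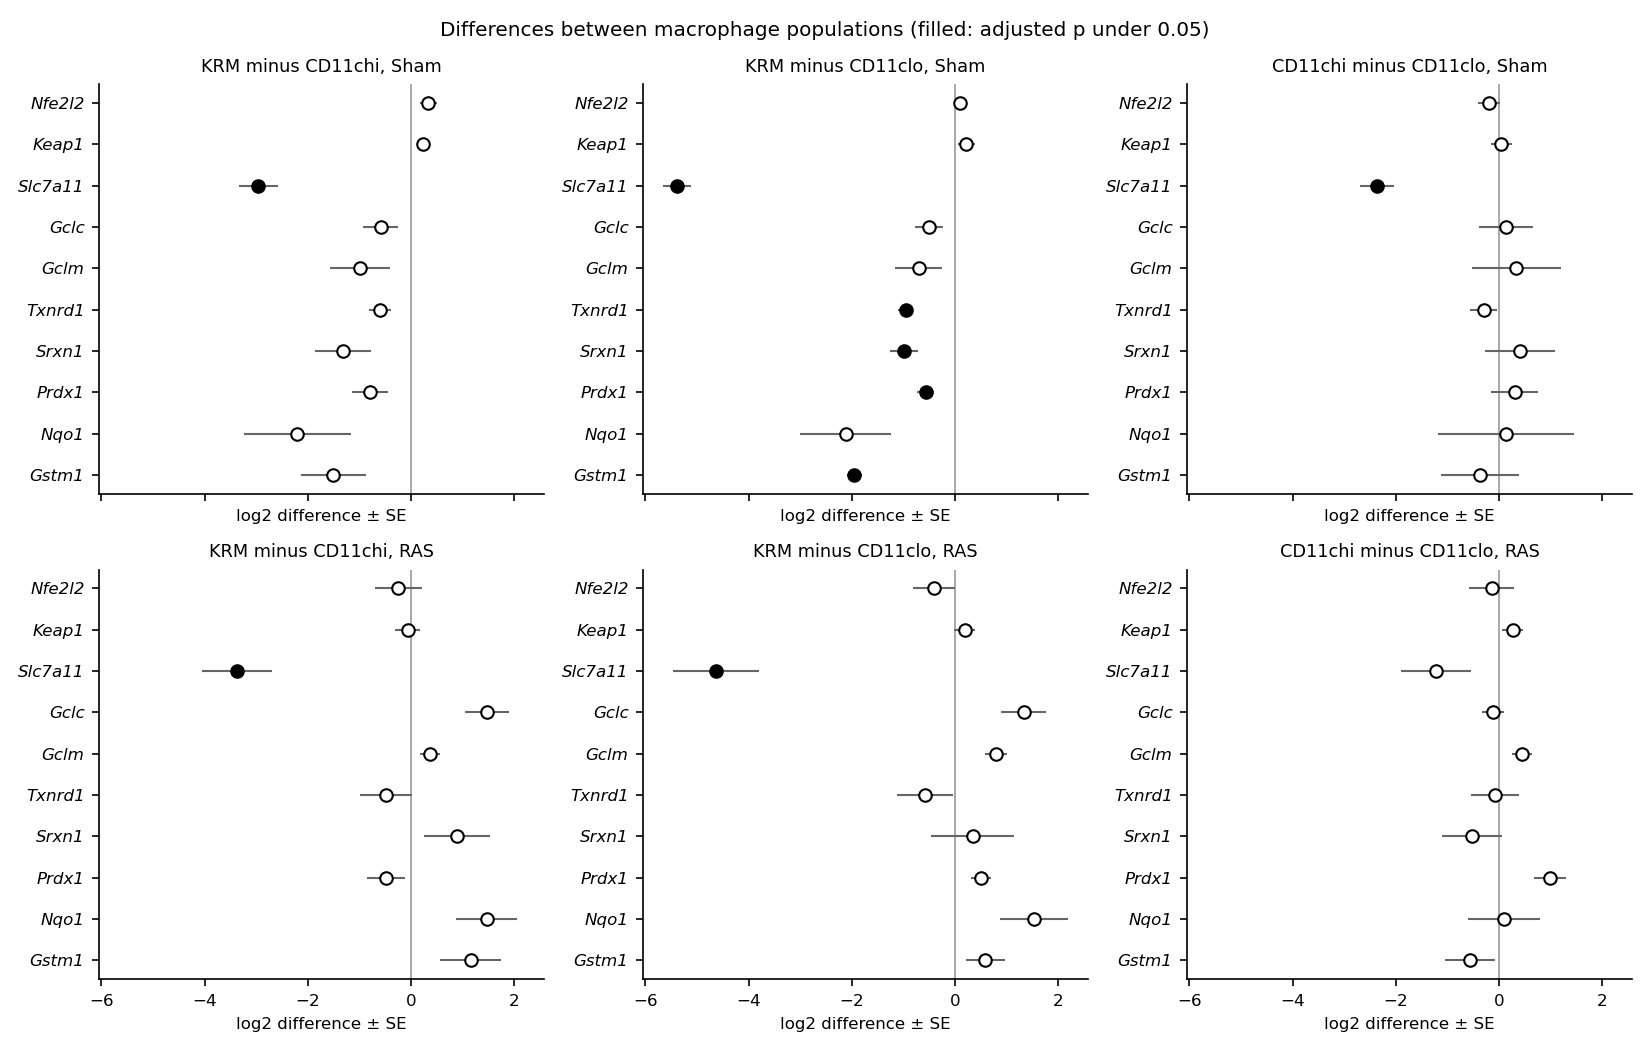
Log2 difference between populations (horizontal axes) of the 10 genes in Sham (upper row) and RAS kidneys (lower row), with SE bars and filled circles where the edgeR adjusted p was under 0.05. Slc7a11 is filled in 5 of the 6 panels and lies furthest left in KRM minus CD11clo, at -5.38 in Sham and -4.63 in RAS kidneys.

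Across all 6 groups the order of mean levels was clear for few members. For Slc7a11 it ran from CD11clo Mϕ RAS (53.4 CPM) through CD11clo Mϕ Sham (22.1 CPM), CD11chi Mϕ RAS (22.1 CPM), CD11chi Mϕ Sham (4.04 CPM) and KRM RAS (2.21 CPM) to KRM Sham (0.515 CPM). Only 2 pairs of neighbours in that order did not overlap, CD11chi Mϕ RAS with CD11chi Mϕ Sham and KRM RAS with KRM Sham. Nfe2l2 ran from CD11clo Mϕ RAS (591 CPM) to CD11chi Mϕ Sham (229 CPM) with the 3 RAS groups above the 3 Sham groups, and all neighbours overlapped. Keap1 ran from KRM Sham (61.6 CPM) to CD11clo Mϕ RAS (38.7 CPM) with the 3 Sham groups above the 3 RAS groups, and all neighbours overlapped.

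Slc7a11 and Srxn1 were the members whose group means spanned more than 2 log2 units, at 5.8 and 2.42. The 3 genes whose centred log2 CPM over the 21 libraries lay closest to Srxn1 were Slc25a33, Txnrd1 and Trp53inp2, at root mean square differences of 0.502, 0.624 and 0.647. Txnrd1 is itself a member. For Slc7a11 they were Clec4d (0.636), 1190002H23Rik (0.747) and Plaur (0.751). Libraries, depth and group differences are shared by all points of these measures.

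The regulators of Nrf2 beyond Nfe2l2 and Keap1 were called most often between Sham KRM and CD11clo Mϕ, the comparison with the largest share of all genes called. Of 13 tested, 2 were higher and 7 lower in KRM, with a median log2 difference of -0.38, where 19.5% of all genes were called higher and 22.3% lower. Nfe2, which encodes a relative of Nrf2, was at 2.22 ± 0.47 CPM in KRM (SD, n = 4) and 172 ± 46.0 CPM in CD11clo Mϕ (SD, n = 3), a difference of -6.28 (SE 0.26, edgeR adjusted p = 1.98e-06). The repressor genes of antioxidant response elements went both ways, with Bach2 higher (1.53, SE 0.32, edgeR adjusted p = 0.00567) and Bach1 lower in KRM (-1.02, SE 0.13, edgeR adjusted p = 4.48e-04). The small MAF gene Mafk was lower in KRM (-1.39, SE 0.24, edgeR adjusted p = 0.00229). No regulator was called in KRM against CD11chi Mϕ, in CD11chi Mϕ against CD11clo Mϕ in Sham kidneys, or between RAS and Sham in any population. In RAS kidneys 2 of 13 were lower in KRM than in each of the other populations. Of all genes 5.07% were lower against CD11chi Mϕ and 5.89% against CD11clo Mϕ. Bach1 was lower in both comparisons (-1.44, edgeR adjusted p = 0.0464, and -1.30, edgeR adjusted p = 0.0295). In CD11chi Mϕ against CD11clo Mϕ Bach2 was higher (2.14, edgeR adjusted p = 0.0036) and Mafk lower (-1.10, edgeR adjusted p = 0.0245). These were the 2 of 13 called, where 5.15% of all genes were higher and 3.12% lower.

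Of the other Nrf2 targets, 12 of 20 tested were lower in Sham KRM than in CD11clo Mϕ and 2 higher, where 22.3% of all genes were lower and 19.5% higher. Against CD11chi Mϕ 3 of 21 were lower, where 4.12% of all genes were. Gsr, which reduces oxidised glutathione, was at 54.4 ± 9.09 CPM in KRM (SD, n = 4), 204 ± 30.8 CPM in CD11chi Mϕ and 1030 ± 409 CPM in CD11clo Mϕ (SD, n = 3 each). The log2 difference was -1.92 (SE 0.19, edgeR adjusted p = 0.00384) against CD11chi Mϕ and -4.24 (SE 0.31, edgeR adjusted p = 2.67e-05) against CD11clo Mϕ. Mgst1, a microsomal glutathione transferase, was lower too, with differences of -2.41 (edgeR adjusted p = 0.0237) and -4.98 (edgeR adjusted p = 9.1e-05). Ephx1, an epoxide hydrolase, went the other way and was higher in KRM than in CD11clo Mϕ (1.85, SE 0.23, edgeR adjusted p = 3.8e-04).

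In KRM from RAS kidneys 2 of 21 other Nrf2 targets tested were called, where 9.7% of all genes were. Gsta4 was higher and Osgin1 lower (-0.67, SE 0.17, edgeR adjusted p = 0.0472), with a median log2 difference of 0.05. The heme oxygenase gene Hmox1 was at -0.12 (SE 0.13, edgeR adjusted p = 0.54), Gsr at 0.22 (SE 0.19, edgeR adjusted p = 0.438) and the ferritin gene Fth1 at -0.04 (SE 0.17, edgeR adjusted p = 0.872). These 3, with Gsta4 (4.03, SE 0.85, edgeR adjusted p = 0.0331), were chosen for naming after their values were seen. None of the other targets was called in CD11chi Mϕ or CD11clo Mϕ between RAS and Sham. In RAS kidneys 1 of 21 was higher and 2 lower in KRM than in CD11chi Mϕ, where 4.17% of all genes were higher and 5.07% lower. Against CD11clo Mϕ 4 of 21 were lower in KRM, where 5.89% of all genes were. In CD11chi Mϕ 2 of 21 were lower than in CD11clo Mϕ, where 3.12% of all genes were, Gsr (-3.02, SE 0.62, edgeR adjusted p = 0.0204) and Mgst1 (-2.34, SE 0.62, edgeR adjusted p = 0.0481).

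Of the other glutathione transferase genes, 1 of 15 tested was called in KRM from RAS kidneys, where 7.77% of all genes rose and 1.94% fell. This was Gstm2 (6.93, SE 1.26, edgeR adjusted p = 0.0269), whose values by library are given with Gstm1. Gstm2 held 3 to 15 counts in the KRM Sham libraries and passed the filter on low counts only through the RAS libraries. In Sham KRM 1 of 13 transferase genes tested was higher and 0 lower than in CD11chi Mϕ, where 1.0% of all genes were higher and 4.12% lower. Against CD11clo Mϕ 1 of 13 was higher and 2 lower, where 19.5% of all genes were higher and 22.3% lower. The higher gene was Hpgds, a transferase that makes prostaglandin D2, at 149 ± 19.1 CPM in Sham KRM (SD, n = 4). It was above CD11chi Mϕ at 53.0 ± 18.9 CPM (1.48, SE 0.25, edgeR adjusted p = 0.0218) and CD11clo Mϕ at 6.10 ± 0.893 CPM (4.62, SE 0.19, edgeR adjusted p = 1.98e-06; SD, n = 3 each). Among 13 genes of glutathione handling tested, Anpep, a membrane peptidase, rose in KRM from RAS kidneys, from 6.84 ± 1.5 CPM (SD, n = 4) to 22.6 ± 3.20 CPM (SD, n = 3; 1.74, SE 0.22, edgeR adjusted p = 0.014). Between Sham KRM and CD11clo Mϕ 1 of 13 glutathione handling genes was higher in KRM and 3 lower, where 19.5% of all genes were higher and 22.3% lower. The glutathione peroxidase genes Gpx1 (-1.12, edgeR adjusted p = 0.00143) and Gpx4 (-1.38, edgeR adjusted p = 0.00195) were among the lower ones.

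Peroxiredoxin and thioredoxin genes differed in both directions between Sham KRM and CD11clo Mϕ, with 4 higher and 6 lower of 14, where 41.8% of all genes were called. Prdx6 (-2.36, SE 0.12, edgeR adjusted p = 5.51e-06) and Prdx5 (-2.15, SE 0.21, edgeR adjusted p = 1.1e-04) were lower in KRM, as Prdx1 was. Txnip, an inhibitor of thioredoxin, was higher (1.17, SE 0.17, edgeR adjusted p = 0.00101), at 1150 ± 56.9 CPM in Sham KRM (SD, n = 4). It fell in KRM from RAS kidneys to 573 ± 149 CPM (SD, n = 3; -0.98, SE 0.19, edgeR adjusted p = 0.0291), the 1 gene of 14 called there. Of 10 genes that make or remove superoxide and peroxide, 5 were lower in Sham KRM than in CD11clo Mϕ, where 22.3% of all genes were, Sod2 among them (-1.43, SE 0.24, edgeR adjusted p = 0.00208), and 0 were called between RAS and Sham in any population. Of the ATF4 response genes, whose factor also drives Slc7a11, 2 of 9 tested rose in KRM from RAS kidneys, where 7.77% of all genes rose, and 3 of 8 were lower in Sham KRM than in CD11clo Mϕ, where 22.3% of all genes were. The summed level of the 10 genes of this list was 1000, 2760 and 2690 CPM in KRM RAS libraries 1, 2 and 3 and 902 to 1600 CPM in the KRM Sham libraries. RAS libraries 2 and 3, the ones above the Sham range, are those with high genes of other tubule segments, whose part in these values was not tested.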

How the data were processed

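RNA of sorted kidney macrophages was made into libraries with SMART-Seq v4 Ultra Low Input and Nextera XT kits. The study's methods give OmicSoft's OSA as the aligner of the paired-end reads, mm10 as the genome and Ensembl R83 as the gene annotation. The authors deposited estimated counts per gene, which need not be whole, and a second table described as TPM scaled and quantile normalized, whose deposited values are on a log2 scale. The submitters' processing notes name DESeq2.

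The 37620 lines of the count table were summed by symbol to 34236 genes and rounded to whole counts. Totals were 6891137 to 18592376 counts in the 21 libraries, and these counts limit the precision of low genes such as Slc7a11 in KRM. Groups were compared with edgeR 4.0.16 (R 4.3.3), a quasi-likelihood F test with TMM scaling and a filter at a minimum count of 10 and a total of 15, fitted on the groups compared. Benjamini-Hochberg adjustment ran over all genes tested, and a gene was called at an adjusted p under 0.05. The 12 comparisons were the 3 pairs of populations in Sham and in RAS kidneys, RAS against Sham in each population, and the 3 differences in that response. Alternatives were RLE size factors, no filter, DESeq2 1.42.0, 1 fit over all 6 groups, a block for the replicate number, limma 3.58.1 on the log2 table, and each library left out. Leaving out the Sham libraries numbered 3, the RAS libraries numbered 1 or the KRM RAS column 1 of the log2 table was chosen after seeing the data. That column correlated with its count column at r = 0.09 over genes, where all others were at 0.915 or more.

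Replicate numbers were taken to pair the Sham libraries, since libraries of different populations with the same number deviated together from their group means (correlation over genes 0.202 or more for each pair). Libraries with different numbers correlated at -0.558 to 0.481, some of them above the same-number pairs. The pairing is a sign from the data, as the labels do not state one. Simulated counts for 200 changed genes were tested first. Of changes of log2 size 2, 47.2% were recovered for RAS against Sham in CD11clo Mϕ (11949 genes), 33% for KRM against CD11chi Mϕ in Sham kidneys (12218 genes) and 31.8% for the response of KRM minus CD11clo Mϕ (13549 genes). Of size 1, 6.6%, 0.4% and 2.2% were recovered in the same order. Unchanged genes made up 7.24%, 6.18% and 3.96% of the calls in that order. The shares for the first 2 of these comparisons lie above the adjusted p threshold of 0.05.

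The members and the lists of regulators, targets and cell type markers were chosen with earlier results of these data known. Of 204 list genes 204 were found, 4 under older symbols. From lists that concern Nrf2, glutathione, thioredoxin or reactive oxygen, up to 3 genes in each direction with the largest change were named per comparison, among those called with an average log2 CPM of at least 3. The tubule genes and Gpx1 and Gpx4 were named after their values were seen. Likeness was the root mean square difference in centred log2 CPM over 8893 genes. Gene positions are from the GENCODE vM21 annotation of GRCm38, the mm10 assembly. Promoter windows are from RefSeq.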

Additional observations from a re-analysis of the deposited data

Results flagged for a closer look

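Gstm1 had a difference in response to RAS, KRM minus CD11clo Mϕ, of 2.53 (SE 0.407, edgeR adjusted p = 0.0373), a call that was lost in 13 of 23 alternative analyses, the replicate block among them. Its 3 KRM RAS libraries were all above the 4 KRM Sham libraries. RAS libraries 2 and 3, at 210 and 172 CPM against 77.6 CPM in library 1, are those with high genes of other tubule segments and high Gstm2, whose part in the difference was not tested. Prdx1 did not pass the same test, at 1.06 (SE 0.248, edgeR adjusted p = 0.0726), but its groups lay apart in opposite directions: all KRM RAS libraries lay above all KRM Sham libraries and all CD11clo Mϕ RAS libraries below all CD11clo Mϕ Sham libraries. No library stood apart from its group in any of the 30 gene and group sets of 4 libraries tested (RAS for CD11chi Mϕ and CD11clo Mϕ, Sham for KRM), where chance gives about 1.5. The groups of 3 libraries, CD11chi Mϕ Sham, CD11clo Mϕ Sham and KRM RAS, could not be tested in this way. They hold KRM RAS library 1 and Sham library 3 of CD11chi Mϕ and CD11clo Mϕ, which stood apart over other genes. A test for a lone library among 4 can also miss a pair of high ones, so its result does not show that the libraries were alike.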

How the results depend on the processing

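Of 2000 member values under alternatives, 124 changed sign and 0 of these were called in either analysis, while 78 calls were lost and 68 gained. With 3 or 4 libraries a group, most calls rest on single libraries. In RAS against Sham in KRM, 4 members were called. DESeq2 called 7, 1 fit over all 6 groups 2, the replicate block 0, limma 2, limma without column 1 8 and omission of RAS libraries numbered 1 8. The genes called there numbered 1247, and 3166 with DESeq2, 42 with the block, 2594 with limma and 7344 without column 1. RAS and Sham libraries share only a number, with same-number correlations of -0.166 to 0.211 in KRM, -0.196 to -0.015 in CD11chi Mϕ and 0.075 to 0.325 in CD11clo Mϕ. The same holds between RAS populations (0.053 to 0.505, not all above 0.1).

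Members called were 0 with the block and with limma for KRM against CD11chi Mϕ in Sham kidneys, and 2 with 1 fit for KRM against CD11clo Mϕ. For CD11chi Mϕ against CD11clo Mϕ in Sham kidneys they were 0 without a filter and with limma, and 2 without Sham libraries numbered 3. For KRM against CD11chi Mϕ in RAS kidneys they were 2 with DESeq2, 1 fit and limma without column 1, 0 with the block and limma, and 3 without RAS libraries numbered 1. For KRM against CD11clo Mϕ they were 2 with RLE, 1 fit and the block, 4 with DESeq2, 0 with limma, 5 with limma without column 1 and 3 without RAS libraries numbered 1. For CD11chi Mϕ against CD11clo Mϕ they were 1 with DESeq2, 1 fit and without RAS libraries numbered 1. For RAS against Sham in CD11chi Mϕ DESeq2 called 1. For the response of KRM minus CD11chi Mϕ they were 3 with DESeq2, and 1 with limma without column 1 and without RAS libraries numbered 1. For KRM minus CD11clo Mϕ they were 4 with DESeq2 and limma without column 1, 0 with 1 fit, the block and without Sham libraries numbered 3, and 3 without RAS libraries numbered 1. The cause was not tested.

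With each library left out, members called ran from 0 to 1, 3 to 6 and 0 to 2 in the Sham comparisons (KRM with CD11chi Mϕ, KRM with CD11clo Mϕ, CD11chi Mϕ with CD11clo Mϕ), from 0 to 2, 0 to 3 and 0 to 1 in RAS kidneys, from 0 to 8 for RAS against Sham in KRM and 0 in the other populations, and from 0 to 1, 0 to 3 and 0 to 0 for the differences in response.

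All genes called moved as follows. In Sham kidneys KRM against CD11chi Mϕ gave 635, and 155 to 1717 with a library left out (1717 without CD11chi Mϕ library 3, 155 without KRM library 2), 1811 with DESeq2, 395 without a filter, 389 with limma and 1493 without Sham libraries numbered 3. KRM against CD11clo Mϕ gave 5178, and 3447 with 1 fit. CD11chi Mϕ against CD11clo Mϕ gave 184, and 704 without CD11chi Mϕ Sham library 3 and 0 without any other library, 95 without a filter, 1213 with DESeq2, 818 with 1 fit, 107 with limma and 1897 without Sham libraries numbered 3. In RAS kidneys KRM against CD11chi Mϕ gave 1221, and 14 to 2788 with a library left out, 2753 with DESeq2, 2138 with 1 fit, 101 with the block and 571 with limma. It gave 2282 with limma without column 1 and 4251 without RAS libraries numbered 1. KRM against CD11clo Mϕ gave 1208, and 0 to 3239 with a library left out, 3220 with DESeq2, 1840 with 1 fit and 731 with limma. It gave 3496 with limma without column 1 and 4060 without RAS libraries numbered 1. CD11chi Mϕ against CD11clo Mϕ gave 1018, and 256 to 2169 with a library left out (2169 without CD11chi Mϕ library 1, 256 without its library 3), 2054 with DESeq2 and 1729 with 1 fit. It gave 1782 without RAS libraries numbered 1. The response of KRM minus CD11clo Mϕ gave 34, and 0 to 2357 with a library left out (2357 without KRM RAS library 1), 59 with RLE, 74 without a filter, 1419 with DESeq2, 58 with 1 fit, 1 with the block and 1461 with limma. It gave 3927 with limma without column 1, 2474 without RAS libraries numbered 1 and 0 without Sham libraries numbered 3.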
